A study of Homo sapiens with 9 samples.

Results

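The genes described here are the heat shock proteins and cochaperones of the count table: protein-coding genes whose symbols begin with HSPA, HSPB, HSP90, HSPD1, HSPE1, HSPH1, DNAJA, DNAJB, DNAJC or CCT and a number, with TCP1 and the transcription factor gene HSF1. HSPBAP1 and HSPBP1 were left out. The names gave 85 genes, and the 68 with a mean of at least 1 CPM over the 9 libraries are the members, out of 62710 genes in the table. CPM is counts scaled to a common library size (counts-per-million, with TMM factors). They comprised 14 genes of the HSP70 and HSP110 families, 3 HSP90 genes, 2 small heat shock protein genes, HSPD1 and HSPE1, 9 subunit genes of the chaperonin CCT, 37 J protein genes (3 DNAJA, 9 DNAJB and 25 DNAJC) and HSF1. All 68 were among the 23075 genes tested. The members nearest the minimum were DNAJC22 at 1.22 CPM and DNAJC12 at 1.48 CPM, and the nearest genes outside were DNAJC5G at 0.649 CPM and HSPB6 at 0.622 CPM. Of the 17 genes under the minimum, 5 were at 0 in every library, and the strictly heat-induced HSPA6 averaged 0.0179 CPM.

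Poly(A) RNA was sequenced from wild-type (WT) H9 cells, an established human embryonic stem cell line. All cultures spent 72 h in mTeSR1 on Matrigel-coated silicone (PDMS) plates and 48 h in N2B27 medium with SB431542 and LDN, which block TGF-beta and BMP receptors and steer the cells towards neuroepithelium. The plates were then bent to a concave shape, bent to a convex shape or kept flat for 24 h, with the inhibitors still present, giving 3 libraries for each shape. The libraries carry replicate numbers 1 to 3 within each shape, and the labels state neither that these are separate cultures nor what a number stands for. The p-values below therefore cover the spread among these libraries, which may be technical.

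HSP70 proteins bind short hydrophobic stretches of unfolded proteins in a cycle of ATP hydrolysis. J proteins bring clients and trigger the hydrolysis, HSP110 proteins and other exchange factors release the nucleotide, and HSP90 and the barrel-shaped chaperonins take over many clients for later folding steps. Small heat shock proteins hold unfolding proteins without ATP. In the cytosol and nucleus HSF1 drives the inducible members through heat shock elements, whereas the endoplasmic reticulum (ER) set answers to the unfolded protein response. Pluripotent stem cells are known for high chaperone expression.

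Libraries held 49420082 to 64763412 counts. Of the early neuroepithelial markers, SOX2 averaged 682 CPM over the 9 libraries, OTX2 285, SIX3 114, HESX1 51.4, PAX6 3.26 and LHX2 1.94 CPM. Of the pluripotency markers, LIN28A averaged 1623 CPM, DPPA4 360, POU5F1 344, L1TD1 295, TDGF1 54.95 and NANOG 0.119 CPM. Summed per library, the neuroepithelial markers took 792 to 1319 CPM and the pluripotency markers 2133 to 3453 CPM. Flat 2 stood apart by transcript length. Its log2 deviation from the 9-library mean of each gene changed by -0.129 per doubling of length. Slopes were -0.0205 to 0.0572 in the other 8 libraries. The libraries numbered 3 stood apart in each shape, which was known from an earlier look at these data. That comparison is therefore given as a description of the split, and no p-value below allows for its choice.

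Per kilobase of transcript, the members with the highest mean level were HSP90AB1 at 1186 CPM per kb, HSPA8 at 890, HSP90AA1 at 823, HSP90B1 at 500, HSPD1 at 301 and HSPA5 at 293. CCT7 at 238 and CCT3 at 215 CPM per kb came next. The stress-inducible HSPA1A was at 14.7 CPM per kb and HSPA1B at 10.4, so the constitutive HSPA8 was the leading cytosolic HSP70 gene. All members together took 1.43% to 2.12% of a library on the CPM scale. Over the 9 libraries, the coefficient of variation of a member's CPM ran from 7.18% in HSF1 to 82.3% in HSPB8, with a median of 18.5%, and in 22 members the highest library was at least 2 times the lowest. Most extremes fell in few libraries. Flat 2 held the highest value of 19 members, concave 3 of 16, flat 3 of 12 and convex 3 of 9. The lowest value was held by concave 1 in 29 members, flat 2 in 13, and convex 1 and convex 3 in 8 each.

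**Figure D1:**
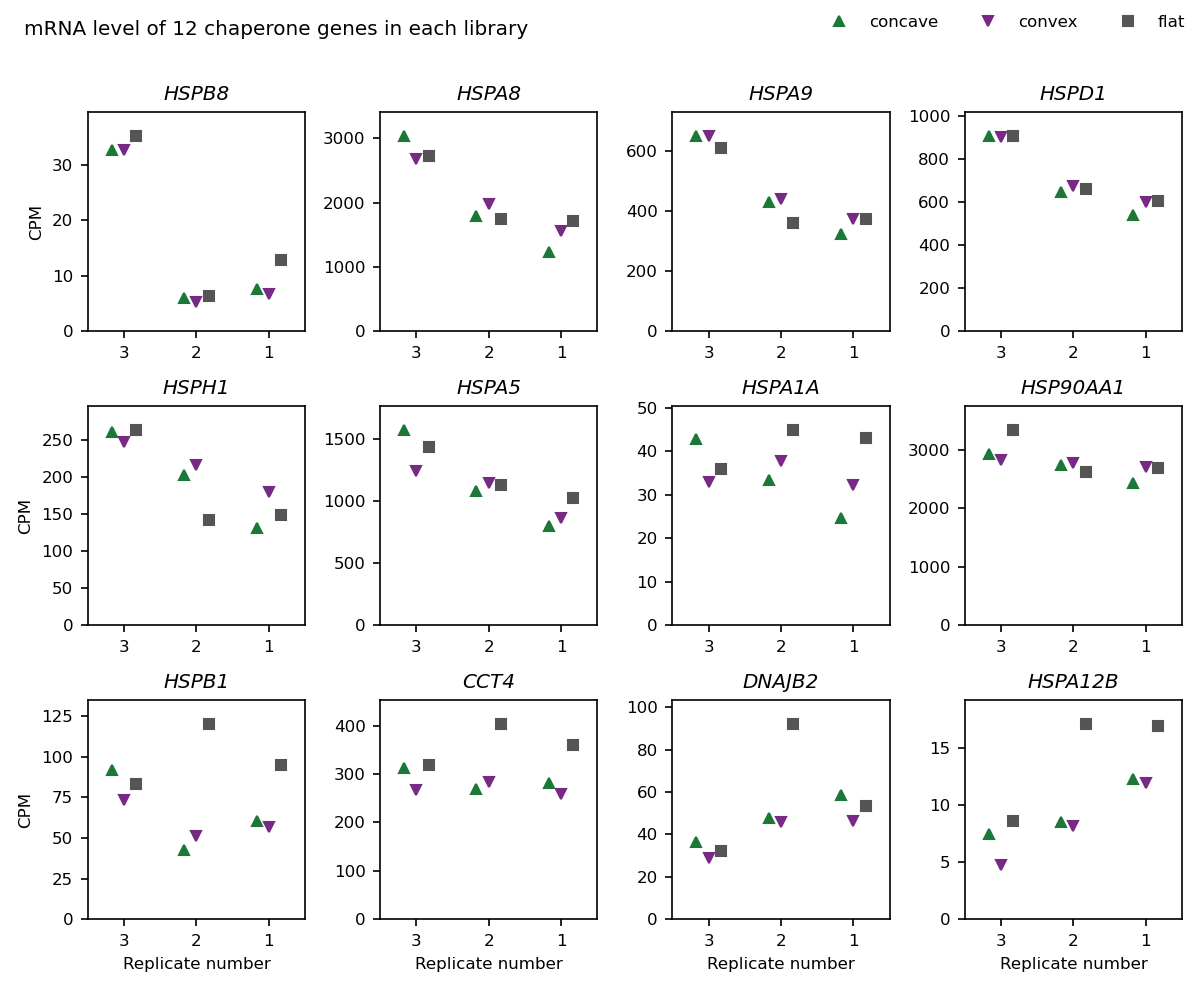
CPM of 12 members in each of the 9 libraries, by replicate number (3, 2 and 1 from left to right) and plate shape (green up-triangles concave, purple down-triangles convex, grey squares flat); each point is 1 library and every axis starts at 0. HSPB8 lies between 32.6 and 35.3 CPM in the libraries numbered 3 and between 5.18 and 12.8 CPM in the others, while the points of HSPA1A overlap between numbers.

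Plate shape was compared first, since the series was designed around it. No member passed an adjusted p of 0.05 in edgeR's quasi-likelihood test between any pair of shapes or in the F test over all 3, where 0.0% of all 23075 genes were called too. DESeq2 and limma voom also called 0 members. At an unadjusted p under 0.05 edgeR gave 2 of 68 members between concave and flat, where 4.54% of all genes did so, 5 between convex and flat (9.25% of all genes), 0 between concave and convex (0.282%) and 3 in the F test (3.89%). With the replicate number as a block, a fit that the check of pairing allowed for convex against flat, 0 members were called, and 17.6% of members (12 of 68) and 18.3% of all genes had an unadjusted p under 0.05. Concave and convex plates were set against the same flat libraries, so their differences from flat share that error.

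Summed over members, the level was 17328 ± 3495 CPM in concave, 17273 ± 2063 CPM in convex and 18578 ± 2065 CPM in flat cultures (SD, n = 3 each). The median log2 difference of the 68 members was -0.08 for concave minus flat, against 0.01 over all genes tested, and -0.07 for convex minus flat, against 0.01 over all genes. By number, the concave minus flat median was -0.21, -0.09 and 0.01 for numbers 1, 2 and 3, and the convex minus flat median was -0.12, -0.02 and -0.10. Without concave 1 the concave median was 0.03, and without concave 3 it was -0.24. Concave minus convex had a median of 0.01 over members, with 37 higher and 31 lower.

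Against flat, the 2 small heat shock protein genes had a median log2 difference of -0.43 on concave and -0.51 on convex plates. HSPD1 and HSPE1 together had one of -0.31 and -0.25, but the 2 genes differed. HSPD1 was at -0.06 and 0.0016, and HSPE1 at -0.57 and -0.50. HSPE1 had 32.4, 73.6 and 51.7 CPM in flat 1, 2 and 3, with flat 2 the highest. HSPB1 encodes HSP27, an ATP-independent holdase that also binds actin. HSPB1 had 60.3, 42.3 and 91.9 CPM in concave 1, 2 and 3, 56.8, 51.3 and 73.5 CPM in convex 1, 2 and 3, and 94.9, 120 and 83.5 CPM in flat 1, 2 and 3. All convex libraries were below all flat ones, while concave 3 lay inside the flat range. The fitted log2 difference was -0.62 (SE 0.27, edgeR adjusted p = 0.841) for concave minus flat and -0.72 (SE 0.27, edgeR adjusted p = 0.513) for convex minus flat. In bulk RNA, fewer cells of a type and less RNA per cell cannot be told apart.

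CCT is the cytosolic chaperonin that folds actin and tubulin, an octamer-ring complex of distinct subunits. All 9 CCT genes had a negative log2 difference against flat on concave plates (median -0.30) and on convex plates (median -0.34), with 0 called. CCT4 had 282, 268 and 312 CPM in concave 1, 2 and 3, 259, 283 and 268 CPM in convex 1, 2 and 3, and 360, 404 and 319 CPM in flat 1, 2 and 3. Both curved groups lay wholly below flat. Its log2 difference was -0.33 (SE 0.15, edgeR adjusted p = 0.841) for concave minus flat and -0.42 (SE 0.15, edgeR adjusted p = 0.513) for convex minus flat. The family median depended on single libraries. Without flat 2, whose short transcripts were high, it was -0.14 for concave minus flat and -0.20 for convex minus flat, and without concave 1 it was -0.18 for concave minus flat, with 5 of 9 subunits lower. By number, the CCT median for concave minus flat was -0.35, -0.58 and 0.05 for numbers 1, 2 and 3. After a correction for transcript length the medians were -0.23 for concave and -0.25 for convex minus flat.

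A pair of J protein genes of low level had the smallest p of their family. DNAJC12, a J protein tied to aromatic amino acid hydroxylases, had 1.53, 0.843 and 0.932 CPM in concave 1, 2 and 3 and 2.23, 2.69 and 1.27 CPM in flat 1, 2 and 3. The groups overlapped, and the log2 difference was -0.90 (SE 0.37, edgeR adjusted p = 0.841). DNAJC27, which joins a small GTPase domain to a J domain, had 11.5, 10.2 and 9.93 CPM in convex 1, 2 and 3 and 7.30, 6.34 and 7.40 CPM in flat 1, 2 and 3. These groups did not overlap, with a log2 difference of 0.59 (SE 0.21, edgeR adjusted p = 0.513).

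Counted over members, 4 were higher and 8 lower on convex than on flat plates with no overlap between the libraries, where 8.91% of all genes were higher and 7.76% lower in that way. The 4 were DNAJC16, DNAJC27, HSF1 and HSPA12A, and the 8 were DNAJC8, CCT3, CCT7, CCT4, HSPA1L, HSPB1, DNAJC5 and CCT8. On concave plates only DNAJC27 was higher than flat without overlap (3.78% of all genes) and CCT4 and DNAJC5 were lower (2.96% of all genes). Between concave and convex plates 0 members were free of overlap, where 1.49% of all genes were higher and 2.08% lower. Between the curved shapes, the smallest p values among members belonged to HSF1, DNAJC5 and HSPA13, an ER-associated HSP70 relative. The log2 differences, concave minus convex, were -0.12 (SE 0.14) for HSF1, -0.12 (SE 0.14) for DNAJC5 and 0.15 (SE 0.20) for HSPA13, and the edgeR adjusted p was 0.9999 for each.

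**Figure D2:**
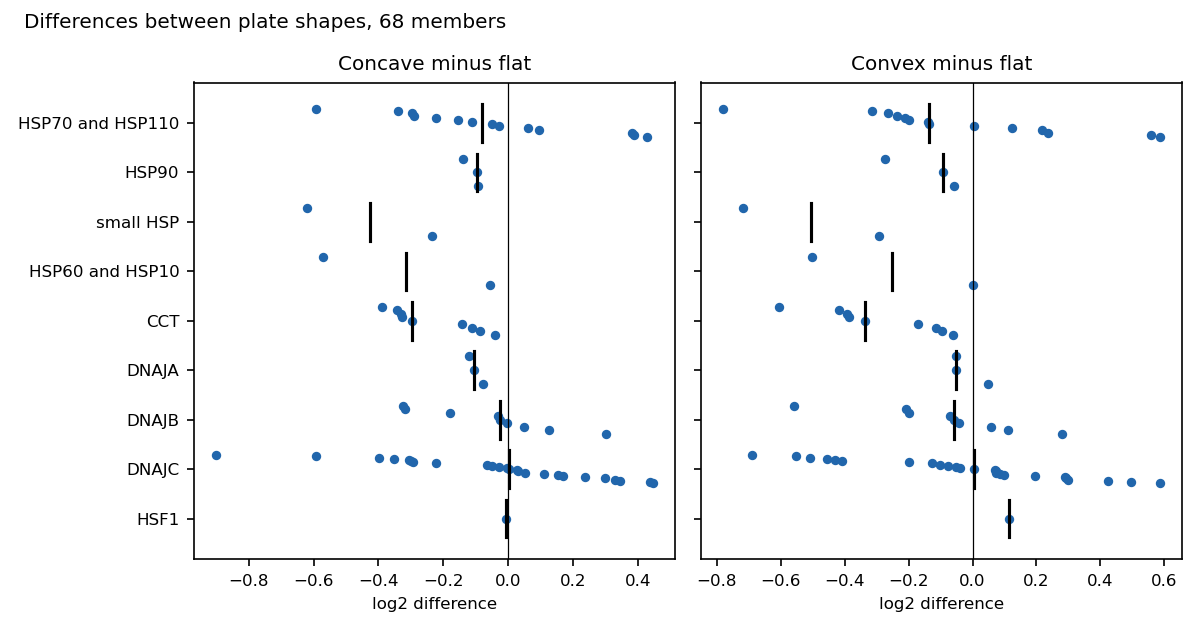
Log2 difference of each of the 68 members for concave minus flat (left) and convex minus flat (right), by family; each dot is 1 gene and the black bar is the family median. The 9 CCT genes lie left of 0 in each panel, with medians of -0.30 and -0.34, while the 25 DNAJC genes spread around 0.

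More members were called between replicate numbers than between shapes. Comparing the 3 libraries numbered 3 with the 6 numbered 1 and 2, with shape in the model, edgeR called 17 of 68 members: 13 higher and 4 lower in number 3. Of all genes, 16.3% were called, 7.59% higher and 8.68% lower, and of the 15523 protein-coding genes 18.4% were called. By sign alone 47 members were higher and 21 lower, and the median log2 difference was 0.19, against 0.00017 over all genes and 0.03 over protein-coding genes. Scaling by library size alone shifted the median of all genes to -0.10 and that of members to 0.09, and called 7 members higher and 5 lower, 17.6% of members against 17.1% of all genes. Summed over members, the level was 20447 ± 992 CPM in the libraries numbered 3 (SD, n = 3) and 16366 ± 1376 CPM in the other 6 (SD, n = 6), without overlap. In 23 members all libraries numbered 3 were above the other 6, where 11.7% of all genes were, and in 4 they were below, where 12.5% were.

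Leaving out single libraries moved this count. Dropping concave 1, 2 or 3 left 10, 13 or 7 calls, when 10.8%, 14.5% or 10% of all genes were called. Dropping convex 1, 2 or 3 left 8, 11 or 2 calls, when 9.12%, 11.2% or 4.42% of all genes were called. Dropping flat 1, 2 or 3 gave 12, 26 or 6 calls, when 13.7%, 22.7% or 9.79% of all genes were called. The member count thus moved with the count over all genes, and without concave 3, convex 3 or flat 3 the members' shares of 10.3%, 2.94% and 8.82% were near or below those of all genes. The calls of HSPB8 and HSPA9 held under all 15 alternatives tried. Each other called member named below lost its call under at least 1 of them.

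Lineage markers moved with the same split. Of 6 pluripotency genes, 5 were called higher in number 3, where 7.59% of all genes were, although NANOG averaged under 1 CPM. Their summed level was 3321 to 3453 CPM in number 3 and 2133 to 2486 CPM in the other 6 libraries. LIN28A gave the largest part, with means of 1731 CPM in number 3 and 1568 CPM in the others. It was not called (log2 difference 0.15, SE 0.12, edgeR adjusted p = 0.456). Of 6 early neuroepithelial genes, 3 were called lower, where 8.68% of all genes were. Their summed level was 792 to 961 CPM in number 3 and 1156 to 1319 CPM in the others. Mesendoderm markers summed to 7.14 to 12 CPM in number 3 and 0.789 to 1.67 CPM in the others. Of the 5, 4 averaged under 1 CPM, and most of the sum in number 3 came from FOXA2. FOXA2 averaged 7.16 CPM in number 3 and 0.255 CPM in the others, and TBXT 1.45 and 0.738 CPM, both called higher. MIXL1 was not called (log2 difference -0.11, edgeR adjusted p = 0.896), and EOMES and SOX17 were too low to be tested. The summed level of 5 non-neural ectoderm markers was 132 to 172 CPM in number 3 and 59.9 to 129 CPM in the others, nearly all from KRT18, since the other 4 averaged under 1 CPM. Fibroblast, endothelial and blood markers summed to 914 to 1402 CPM in number 3 and 467 to 1060 CPM in the others, mostly from COL1A1 (edgeR adjusted p = 0.0818), with DCN and PTPRC averaging under 1 CPM. The endothelial CDH5 and PECAM1 of that list were called lower in number 3, at log2 differences of -2.05 and -1.55. None of these lists had a gene at 0 in every library. Their part in the chaperone differences was not tested.

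**Figure D3:**
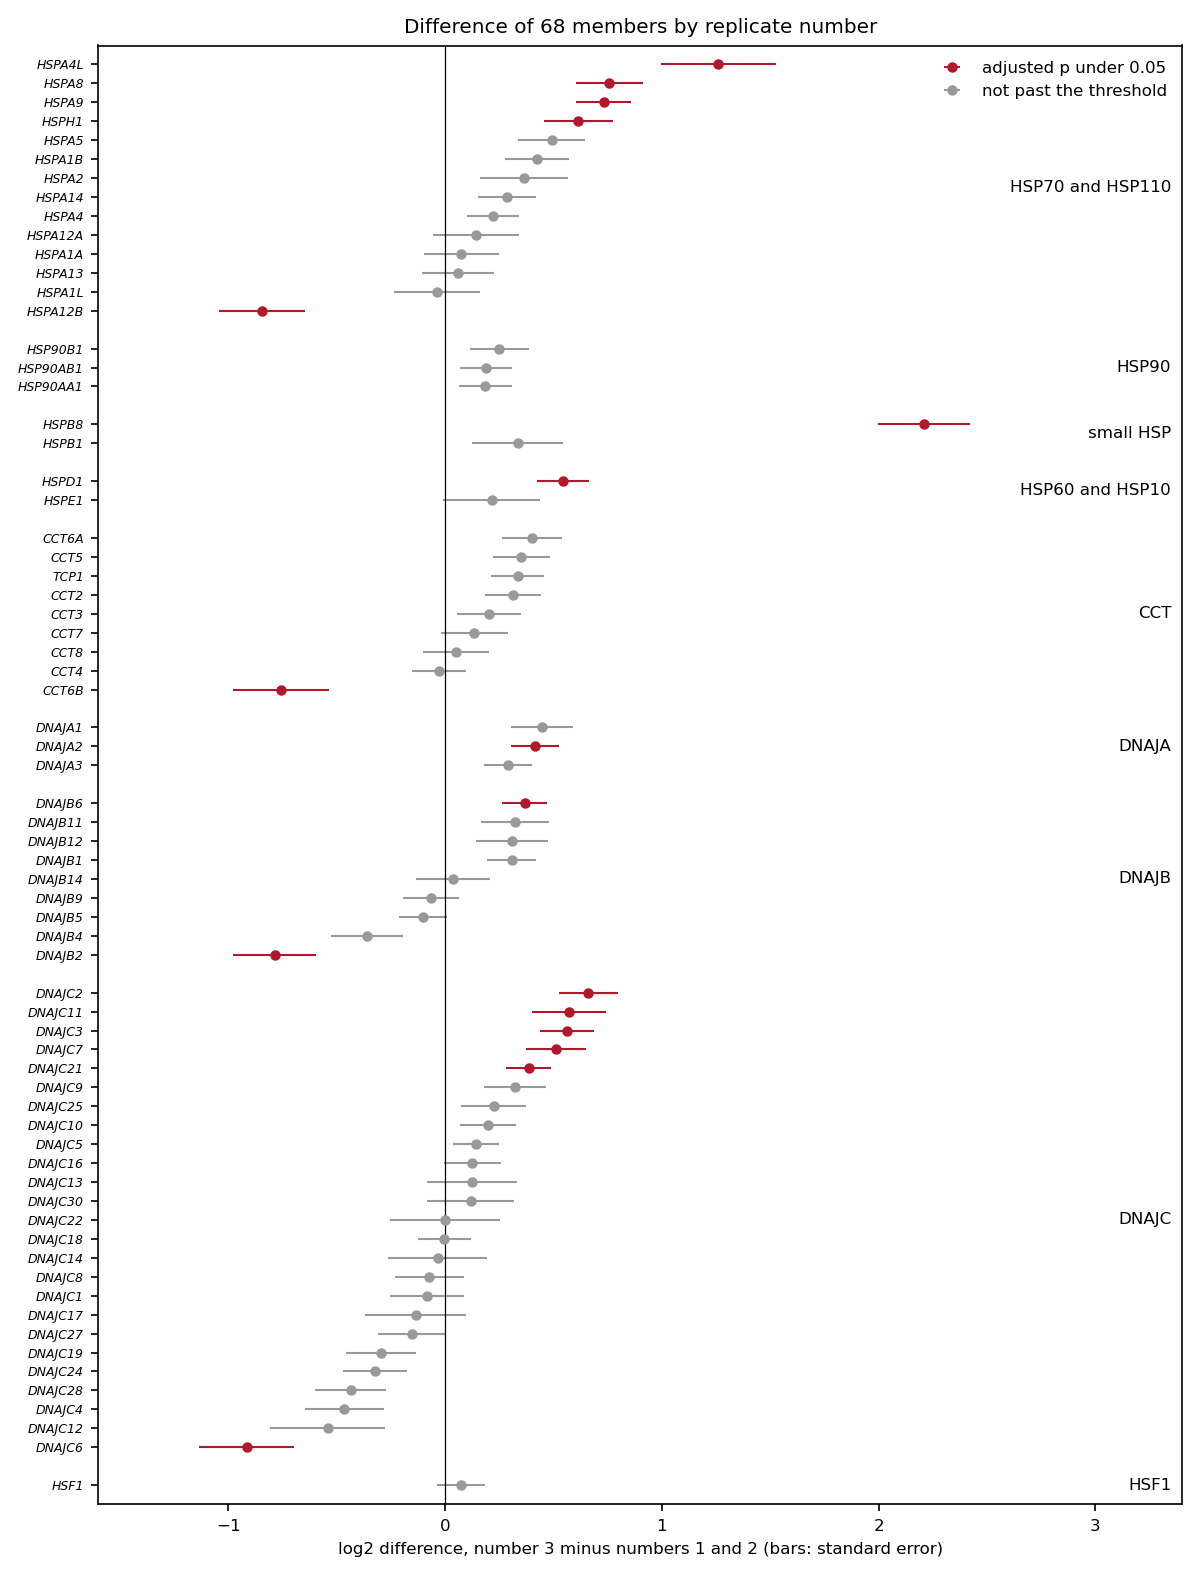
Log2 difference of each of the 68 members for the libraries numbered 3 minus those numbered 1 and 2, by family, with bars of 1 standard error; red marks an edgeR adjusted p under 0.05. HSPB8 stands farthest right at 2.21, 12 of the 14 HSP70 and HSP110 genes are right of 0, and DNAJC6 is lowest at -0.92.

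Among cytosolic HSP70 genes, HSPA8 encodes HSC70, the abundant constitutive HSP70 that also strips clathrin from coated vesicles. HSPA8 (ENSG00000109971; chromosome 11, 123057489 to 123063230, minus strand, GENCODE v29 on GRCh38) had 3042, 2674 and 2729 CPM in concave 3, convex 3 and flat 3. The other 6 libraries had a lowest value of 1237, a median of 1729 and a highest of 1979 CPM. All 3 libraries numbered 3 were above the rest. The log2 difference was 0.76 (SE 0.16, edgeR adjusted p = 0.0098), with adjusted p of 0.0659 without concave 3 and 0.0524 without convex 3. The stress-inducible genes HSPA1A and HSPA1B did not follow it clearly. HSPA1A had 42.9, 33.0 and 35.9 CPM in concave 3, convex 3 and flat 3, inside the 24.8 to 45.0 CPM of the other 6 libraries (median 35.6). HSPA1B had 33.4, 29.2 and 30.8 CPM there, and 17.2, 23.2 and 29.9 CPM as lowest, median and highest of the others, with a log2 difference of 0.42 (SE 0.15, edgeR adjusted p = 0.0762). Of the HSPA1A transcript's stretches of 75 bases, 71.2% also occur elsewhere in the transcriptome, mostly in HSPA1B, and the counting of shared reads is not given, so these 2 levels are uncertain.

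HSP110 proteins act as nucleotide exchange factors for HSP70. HSPH1, the inducible HSP110, had 260, 248 and 264 CPM in concave 3, convex 3 and flat 3, against 131, 165 and 217 CPM as lowest, median and highest of the other 6. The groups did not overlap, and the log2 difference was 0.61 (SE 0.16, edgeR adjusted p = 0.0264). HSPA4L, a relative of HSPH1 first known from testis, was at 2.55, 4.03 and 2.93 CPM in concave 3, convex 3 and flat 3 and at 0.632, 1.45 and 1.81 CPM as lowest, median and highest of the others. It too did not overlap, with a log2 difference of 1.26 (SE 0.27, edgeR adjusted p = 0.0106). The HSPH1 call was lost under 7 of 15 alternatives and that of HSPA4L under 2. Summed over the 14 HSP70 and HSP110 genes, the level was 5441 to 6200 CPM in number 3 and 3019 to 4375 CPM in the others. In that family 12 of 14 genes were higher, 4 called higher and 1 called lower. The called share was 35.7%, against 16.3% of all genes.

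HSPA12B, a distant HSP70 relative known from endothelium, was the gene called lower. It had 7.43, 4.73 and 8.62 CPM in concave 3, convex 3 and flat 3 and 8.17, 12.1 and 17.2 CPM as lowest, median and highest of the other 6. Flat 3 overlapped the others, and the log2 difference was -0.85 (SE 0.20, edgeR adjusted p = 0.0169). The endothelial markers CDH5 and PECAM1 were lower in number 3 as well, at means of 0.720 CPM against 2.96 CPM and 0.504 CPM against 1.47 CPM. COL1A1, the other tested gene of their marker list, was higher (log2 difference 0.76, edgeR adjusted p = 0.0818). A link of these markers to HSPA12B was not tested. Across plate shapes HSPA12B averaged 9.44 CPM on concave, 8.28 CPM on convex and 14.3 CPM on flat plates. HSPA1L, the third HSP70 gene of its locus, had 2.90, 2.73 and 2.97 CPM in concave 3, convex 3 and flat 3, within the 2.22 to 3.85 CPM of the others.

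HSPB8, a small heat shock protein that works with BAG3 in the removal of misfolded proteins by autophagy, had the smallest p of all members. HSPB8 (ENSG00000152137; chromosome 12, 119178642 to 119221131, plus strand, GENCODE v29 on GRCh38) had 32.7, 32.6 and 35.3 CPM in concave 3, convex 3 and flat 3. The other 6 libraries had a lowest value of 5.18, a median of 6.46 and a highest of 12.8 CPM. The 3 libraries numbered 3 were alike and far above the rest, of which flat 1 was the highest. The log2 difference was 2.21 (SE 0.21, edgeR adjusted p = 0.000311), between 2.08 and 2.40 over 15 alternatives. Its partner BAG3 had 40.3, 37.6 and 40.5 CPM in concave 3, convex 3 and flat 3, against 25.0 to 34.9 CPM in the other 6, and was not called (log2 difference 0.38, SE 0.13, edgeR adjusted p = 0.0767). HSPB1, the other small heat shock protein gene among the members, had a log2 difference of 0.33 (SE 0.21, edgeR adjusted p = 0.31) and overlapped.

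In mitochondria, HSPA9 (mortalin) is the matrix HSP70 that pulls in and folds imported proteins. HSPA9 had 651, 653 and 611 CPM in concave 3, convex 3 and flat 3, against 326, 375 and 441 CPM as lowest, median and highest of the other 6. The groups did not overlap, and the log2 difference was 0.73 (SE 0.13, edgeR adjusted p = 0.00416). HSPD1 encodes HSP60, the matrix chaperonin. It had 906, 900 and 907 CPM in concave 3, convex 3 and flat 3, against 538, 625 and 675 CPM as lowest, median and highest of the others. The libraries numbered 3 were alike and above all others, with a log2 difference of 0.54 (SE 0.12, edgeR adjusted p = 0.0126); the adjusted p was 0.0689 without concave 3, 0.0555 without convex 1 and 0.0842 without convex 3.

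HSPE1, the HSP10 lid of the same chaperonin, is a neighbour of HSPD1 on chromosome 2 and is read from the opposite strand. HSPE1 had 40.4, 43.6 and 51.7 CPM in concave 3, convex 3 and flat 3, and 29.4, 32.8 and 73.6 CPM as lowest, median and highest of the other 6, the highest being flat 2. Its log2 difference was 0.21 (SE 0.22, edgeR adjusted p = 0.557). Its mean of 43.8 CPM per kb was far below the 301 CPM per kb of HSPD1. HSPE1 shares 9.71% of its exonic bases with the readthrough gene HSPE1-MOB4, which is listed at 0 in all libraries, and 22.3% of its transcript's stretches of 75 bases occur in other transcripts. DNAJC11, a J protein of the inner membrane organising system, was the 13th gene called higher, at 97.7, 115 and 91.1 CPM in concave 3, convex 3 and flat 3 and 37.7, 74.5 and 81.2 CPM as lowest, median and highest of the others (log2 difference 0.57, SE 0.17, edgeR adjusted p = 0.0463). Of the mitochondrial list of 9 genes, 6 were higher and 3 were called, all higher. The called share was 33.3%, against 16.3% of all genes. DNAJC15 of that list, under 1 CPM and no member, was among the lower ones.

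In the ER lumen, HSPA5 encodes BiP, the HSP70 that also holds the unfolded protein sensors inactive. HSPA5 had 1578, 1242 and 1435 CPM in concave 3, convex 3 and flat 3, against 803, 1054 and 1148 CPM as lowest, median and highest of the other 6. The groups did not overlap, but the log2 difference of 0.49 (SE 0.15) had an edgeR adjusted p of 0.054. HSP90B1, the ER HSP90 also called GRP94, had 1719, 1440 and 1624 CPM there, against 1126 to 1719 CPM in the others. Concave 3, at 1718.93 CPM, was barely above flat 2, at 1718.74 CPM, and convex 3 and flat 3 lay inside that range. DNAJC3, an ER J protein that serves HSPA5, had 67.5, 64.8 and 68.7 CPM in concave 3, convex 3 and flat 3, against 38.8, 43.6 and 52.5 CPM as lowest, median and highest of the others. It did not overlap and was called, with a log2 difference of 0.56 (SE 0.12, edgeR adjusted p = 0.013). Its call was lost under 3 of 15 alternatives. DNAJB11, another luminal J protein, had 95.2, 71.5 and 84.7 CPM in concave 3, convex 3 and flat 3 and 54.6 to 77.8 CPM in the others. Of the ER list of 8 members, 6 were higher and only DNAJC3 was called, 12.5% against 16.3% of all genes.

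Of the 3 HSP90 genes, 0 were called by edgeR, DESeq2 or limma voom. In edgeR 0 had an unadjusted p under 0.05, where 31.0% of all genes had one. HSP90AA1, the inducible cytosolic HSP90, had 2923, 2817 and 3342 CPM in concave 3, convex 3 and flat 3, against 2437, 2698 and 2775 CPM as lowest, median and highest of the other 6. HSP90AB1, the constitutive form, had 3451, 3270 and 3385 CPM there and 2733, 2968 and 3175 CPM in the others. In each the libraries numbered 3 were the highest, without overlap, where 11.7% of all genes were. The log2 differences were small, 0.18 (SE 0.12) for HSP90AA1 and 0.19 (SE 0.12) for HSP90AB1, with edgeR adjusted p of 0.343 and 0.325.

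Of the 9 CCT genes, 7 were higher in number 3 (median 0.20) and 0 were called higher by edgeR. In edgeR 5 of 9, CCT6B among them, had an unadjusted p under 0.05, where 31.0% of all genes had one. DESeq2 called 2 of 9 in either direction, where it called 21.8% of all genes. Without concave 3 the median was 0.04. CCT6A had 428, 385 and 414 CPM in concave 3, convex 3 and flat 3, against 250, 318 and 361 CPM as lowest, median and highest of the other 6 (log2 difference 0.40, SE 0.14, edgeR adjusted p = 0.0732). TCP1, the alpha subunit, had 335, 287 and 315 CPM there and 219, 248 and 281 CPM in the others. CCT2 and CCT5 were likewise without overlap, at 359 to 384 CPM against 261 to 338 CPM and at 426 to 483 CPM against 291 to 406 CPM. In all, 4 CCT genes were higher without overlap in number 3, where 11.7% of all genes were. CCT6B, the testis-enriched counterpart of CCT6A, was called lower: it had 2.11, 1.94 and 2.01 CPM in concave 3, convex 3 and flat 3 and 2.65, 3.22 and 5.43 CPM as lowest, median and highest of the others. The groups did not overlap, with a log2 difference of -0.76 (SE 0.22, edgeR adjusted p = 0.0422). That call was lost under 7 of 15 alternatives.

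J proteins fall into classes A, B and C by the domains beside the J domain. DNAJA1 and DNAJA2 are cytosolic partners of HSPA8. DNAJA2 had 120, 121 and 129 CPM in concave 3, convex 3 and flat 3, against 80.0, 95.2 and 97.1 CPM as lowest, median and highest of the other 6, with a log2 difference of 0.41 (SE 0.11, edgeR adjusted p = 0.0286). DNAJA1 had 383, 356 and 399 CPM there and 216, 281 and 321 CPM in the others, and its log2 difference of 0.45 (SE 0.14) had an edgeR adjusted p of 0.0602. Both were free of overlap, as was the mitochondrial DNAJA3, at 65.6 to 70.1 CPM against 46.6 to 58.3 CPM. Of all genes, 11.7% were higher in number 3 in that way. The summed level of the 3 DNAJA genes was 548 to 593 CPM in number 3 and 342 to 476 CPM in the others.

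DNAJB1, the classical HSP40 of the heat shock response, had 106, 98.7 and 119 CPM in concave 3, convex 3 and flat 3 and 72.9, 88.6 and 104 CPM as lowest, median and highest of the other 6. Convex 3 overlapped the others, and the log2 difference was 0.31 (SE 0.11, edgeR adjusted p = 0.0952). DNAJB6, which keeps polyglutamine proteins from aggregating, had 169, 178 and 166 CPM in concave 3, convex 3 and flat 3, against 122.9, 134 and 139 CPM as lowest, median and highest of the others, without overlap (log2 difference 0.37, SE 0.10, edgeR adjusted p = 0.0365). DNAJB2, a ubiquitin-binding J protein known from neurons, went the other way. It had 36.5, 28.8 and 32.2 CPM in concave 3, convex 3 and flat 3, against 45.7, 50.5 and 92.3 CPM as lowest, median and highest of the others, with a log2 difference of -0.79 (SE 0.19, edgeR adjusted p = 0.0208). All libraries numbered 3 were below the rest, of which flat 2 was far the highest. The DNAJB family as a whole had 5 genes higher and 4 lower, with a median of 0.04 that became -0.06 when libraries were scaled by size alone.

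The 25 DNAJC genes divided evenly, with 12 higher and 13 lower and a median of -0.0021, and 5 were called higher and 1 lower. The called share was 24%, against 16.3% of all genes. Members at ribosomes and in ribosome assembly were among those called. DNAJC2, which docks on the ribosome with the HSP70 relative HSPA14, had 59.2, 69.1 and 61.9 CPM in concave 3, convex 3 and flat 3, against 33.0, 41.5 and 47.4 CPM as lowest, median and highest of the other 6 (log2 difference 0.66, SE 0.13, edgeR adjusted p = 0.00906). DNAJC21, a maturation factor of the large ribosomal subunit, had 56.6, 58.4 and 55.8 CPM there and 40.4, 44.2 and 45.6 CPM in the others (log2 difference 0.39, SE 0.11, edgeR adjusted p = 0.032). Neither gene overlapped. HSPA14 itself had 55.5, 49.1 and 52.2 CPM in number 3 and 35.9, 43.8 and 52.7 CPM in the others, with a log2 difference of 0.29 (SE 0.13, edgeR adjusted p = 0.171).

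DNAJC7, a cochaperone with tetratricopeptide repeats that binds HSP70 and HSP90, had 157, 145 and 138 CPM in concave 3, convex 3 and flat 3, against 83.3, 103 and 125 CPM as lowest, median and highest of the other 6. It did not overlap, with a log2 difference of 0.51 (SE 0.14, edgeR adjusted p = 0.0323). DNAJC6 (auxilin) recruits HSPA8 to clathrin-coated vesicles and is known from neurons. It had 5.47, 5.77 and 6.30 CPM in concave 3, convex 3 and flat 3, against 6.46, 11.7 and 15.1 CPM, and was called lower, with a log2 difference of -0.92 (SE 0.22, edgeR adjusted p = 0.0192). The groups did not overlap, but flat 2, at 6.46 CPM, lay close to number 3. The calls of DNAJA2, DNAJC21 and DNAJC7 were each lost under 9 of 15 alternatives and that of DNAJB6 under 10, those of DNAJB2, DNAJC6 and HSPA12B under 2 each and that of DNAJC2 under 1. HSF1, the transcription factor, had 77.5, 74.4 and 68.2 CPM in concave 3, convex 3 and flat 3, within the 62.6 to 76.5 CPM of the others except for concave 3.

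**Figure D4:**
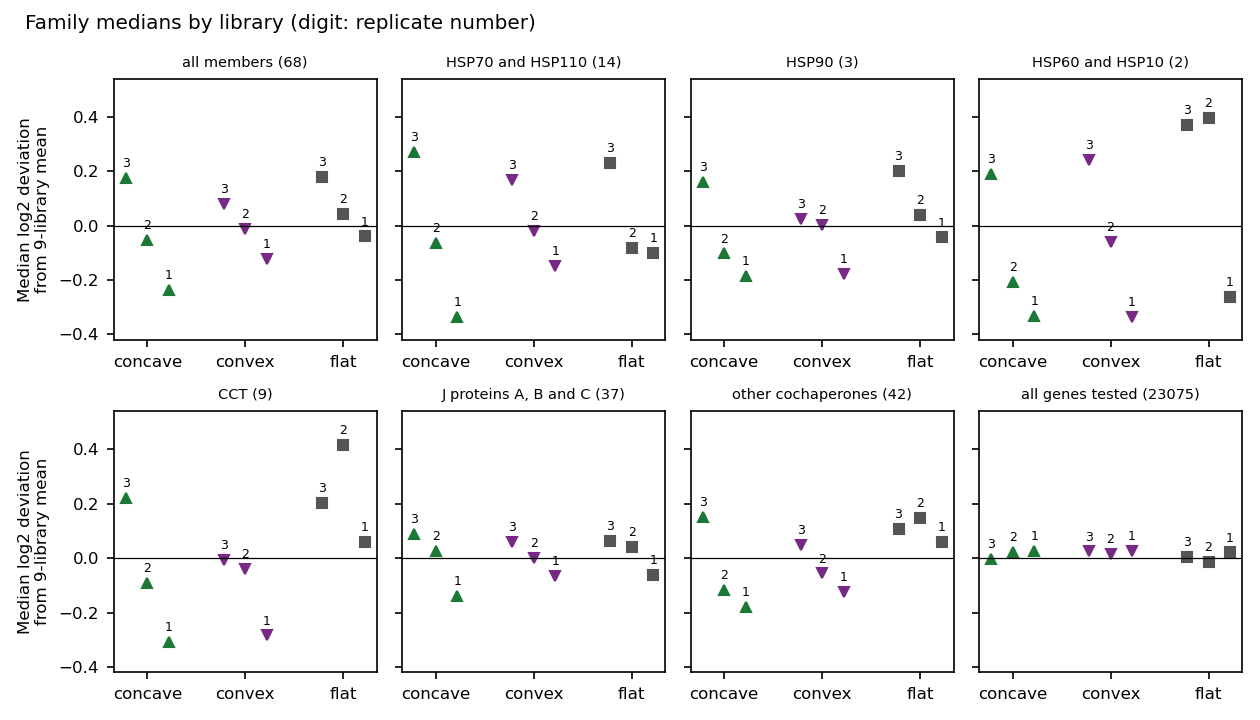
Median log2 deviation from the 9-library mean in each library for all members, 5 families or groups, the other cochaperones and all genes tested; the digit is the replicate number and the number in each title is the count of genes. HSP70 and HSP110 genes are above 0 in the 3 libraries numbered 3, at 0.27, 0.17 and 0.23, CCT genes are highest in flat 2 at 0.42, and the median of all genes stays near 0.

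A list of 12 members taken as HSF1 targets holds strongly heat-induced genes such as HSPA1A, HSPA1B and DNAJB1 and also the constitutive HSPA8 and HSP90AB1. All 12 had a positive log2 difference in number 3, with a median of 0.38. With libraries scaled by size alone, or with concave 1 or concave 3 left out, 11 did. A positive difference was also found in 47 of all 68 members and in 11542 of the 23075 genes tested. Of the 12 genes, 4 were called (HSPA8, HSPH1, HSPA4L and HSPD1), a share of 33.3%, against 16.3% of all genes. The list had 0 calls without convex 3, 1 without concave 3, 2 without convex 1 or flat 3 and 7 without flat 2. Of all genes, 4.42% were called without convex 3, 10% without concave 3 and 9.12% without convex 1. Without flat 3 and flat 2 these shares were 9.79% and 22.7%. The strongly induced HSPA1A had the smallest difference, at 0.07, and was not called. Between the libraries numbered 2 and those numbered 1, edgeR called 0 of 68 members and 0.0% of all genes, while DESeq2 called 0 members and 147 genes. At an unadjusted p under 0.05 edgeR gave 8 members, and 8.54% of all genes. HSPA2, an HSP70 gene best known from testis, had 20.5, 20.2 and 22.9 CPM in concave 2, convex 2 and flat 2, against 28.8, 27.3 and 42.7 CPM in concave 1, convex 1 and flat 1. Those groups did not overlap, with a log2 difference of -0.61 (SE 0.15, edgeR adjusted p = 0.417). HSPB8 was also lower in number 2 than in number 1, at means of 5.81 CPM and 9.03 CPM (log2 difference -0.59, SE 0.19, edgeR adjusted p = 0.518), and the mitochondrial J protein gene DNAJC30 was higher, at 14.3 CPM and 9.90 CPM (0.52, SE 0.16, edgeR adjusted p = 0.519).

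Promoter sequence was read for the members from RefSeq (GRCh38.p14), 250 bases before to 50 after each start, and 61 of 68 members had an entry. A heat shock element of 3 units was searched as GAA, TTC and GAA with any 2 bases between neighbours, and one of 2 units as GAA and TTC, in either order, with any 2 bases between them, on both strands, a 2-unit match also being counted inside each 3-unit match. A gene with several starts was counted where any of its windows held a match. The 3-unit element was in 6 of 61 members (9.84%), against 0.608% of all 27305 genes with an entry. By window it was in 6 of 80 (7.5%), against 0.49% of all 35116 windows. HSPD1, HSP90AA1 and HSP90AB1 also had windows without any match. Those members were DNAJA1, DNAJB6, HSP90AA1, HSP90AB1, HSPA8 and HSPD1. The 2-unit element was in 20 of 61 members (32.8%), against 16.2% of all genes. The ER stress element, searched on both strands as CCAAT and CCACG with any 9 bases between them, was in 2 of 61 (3.28%), HSPA5 and HSP90B1, against 0.0916% of all genes. Of the 6 members with a 3-unit element, HSPA8, HSPD1 and DNAJB6 were called higher in number 3 and DNAJA1, HSP90AA1 and HSP90AB1 were not. Of all 68 members 13 were called higher, and of all genes 7.59%. The search allowed no mismatch. HSPA1A, HSPA1B, HSPH1, HSPA4L, HSPB1, DNAJB1 and HSPE1 of the HSF1 target list held no 3-unit match in these windows, and the other genes of that list did.

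The windows of 3 genes called higher in number 3 and of HSPA5 are shown, since they hold each type of element beside the levels given above. Capitals mark the matches: 2 separate 3-unit elements in HSPA8, 230 and 55 bases before the start, 2 overlapping 3-unit elements in HSPD1, 245 and 240 bases before it, 2 separate 2-unit elements in HSPB8, 1 of them 88 bases before the start and 1 after it, and the ER stress element of HSPA5, 66 bases before it. HSPD1 also had a window from another start, chr2:197500225-197500524, which held no match and is not shown. Each sequence is written 5′ to 3′ on the gene's own strand. The windows are chr11:123062087-123062386, minus strand, for HSPA8, chr2:197499791-197500090, minus strand, for HSPD1, chr12:119178681-119178980, plus strand, for HSPB8, and chr9:125241294-125241593, minus strand, for HSPA5.
HSPA8: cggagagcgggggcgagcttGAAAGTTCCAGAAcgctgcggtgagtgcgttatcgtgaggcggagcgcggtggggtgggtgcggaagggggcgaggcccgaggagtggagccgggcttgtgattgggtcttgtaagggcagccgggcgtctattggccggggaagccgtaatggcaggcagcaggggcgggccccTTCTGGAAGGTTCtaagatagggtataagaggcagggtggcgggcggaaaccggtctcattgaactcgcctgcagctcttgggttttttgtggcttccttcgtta
HSPD1: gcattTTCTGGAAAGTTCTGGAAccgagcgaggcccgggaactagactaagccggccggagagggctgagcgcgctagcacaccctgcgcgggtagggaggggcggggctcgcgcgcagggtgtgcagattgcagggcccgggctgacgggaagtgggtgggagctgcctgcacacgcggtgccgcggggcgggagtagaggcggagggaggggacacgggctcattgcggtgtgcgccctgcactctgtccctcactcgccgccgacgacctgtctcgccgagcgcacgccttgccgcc
HSPB8: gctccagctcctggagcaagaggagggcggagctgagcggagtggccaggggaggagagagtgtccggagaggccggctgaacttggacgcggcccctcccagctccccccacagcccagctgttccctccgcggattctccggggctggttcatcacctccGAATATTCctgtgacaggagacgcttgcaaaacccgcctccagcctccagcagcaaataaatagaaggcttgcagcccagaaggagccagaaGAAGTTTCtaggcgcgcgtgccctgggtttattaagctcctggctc
HSPA5: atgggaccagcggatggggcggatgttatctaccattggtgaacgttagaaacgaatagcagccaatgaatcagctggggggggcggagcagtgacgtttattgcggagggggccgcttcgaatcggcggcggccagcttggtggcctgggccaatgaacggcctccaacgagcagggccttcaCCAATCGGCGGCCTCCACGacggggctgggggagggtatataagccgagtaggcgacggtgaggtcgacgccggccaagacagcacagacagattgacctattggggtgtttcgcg

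HSPB8, with the largest difference of all members between the numbers, held no 3-unit element in this window, whereas HSPA8 held 2. HSP90AB1 held 2 as well, though not in each of its windows, with a log2 difference of 0.19. A match shows only that the letters are present.

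A list of 42 further genes, called the other cochaperones here, was read beside the members. It also holds chaperone and regulator genes whose symbols fall outside the rule, such as CRYAB, TRAP1, HYOU1, CLPB and HSF2. In number 3, 29 were higher and 13 lower, with 4 called higher and 2 lower and a median of 0.18. The called share of this list, 14.3%, was below the 16.3% of all genes. BAG2, an exchange factor that restrains the ubiquitin ligase CHIP, had 19.8, 21.5 and 22.1 CPM in concave 3, convex 3 and flat 3, against 8.17 to 11 CPM in the other 6. FKBP4, an immunophilin partner of HSP90, had 163, 149 and 170 CPM there, against 79.9 to 119 CPM. Neither overlapped, with log2 differences of 1.06 (SE 0.14, edgeR adjusted p = 0.00108) for BAG2 and 0.76 (SE 0.11, edgeR adjusted p = 0.00204) for FKBP4. CHORDC1, an HSP90 cochaperone, and PDCL3, which assists CCT, were also called higher, at log2 differences of 0.54 and 0.48. CRYAB, a small heat shock protein of lens and muscle, was called lower, at 1.97, 1.78 and 2.06 CPM against 2.38 to 6.91 CPM (log2 difference -1.05, SE 0.25, edgeR adjusted p = 0.0188), as was AHSA2P at -0.49.

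Of 20 genes of ER folding and the unfolded protein response, 17 were higher and 3 lower in number 3, with 4 called higher and a median of 0.21. The called share was 20%, against 16.3% of all genes and 18.4% of protein-coding genes. The called genes were the lectin chaperone CANX (0.60), the ER degradation factor HERPUD1 (0.69) and the response's transcription factors XBP1 (0.66) and ATF4 (0.58), given as log2 differences. HERPUD1 had 39.9, 33.1 and 33.8 CPM in concave 3, convex 3 and flat 3, against 20.6 to 24.1 CPM in the others, and ATF4 had 346, 327 and 341 CPM against 181 to 316 CPM. Between shapes neither list had a called gene. The median log2 difference of the 42 cochaperones was -0.18 for concave minus flat and -0.17 for convex minus flat. Of them, 33 and 30 were lower, and 4 and 5 had an unadjusted p under 0.05 in edgeR. Of all genes, 4.54% and 9.25% had one. By number, the cochaperones' concave minus flat median was -0.23, -0.29 and 0.0076 for numbers 1, 2 and 3. Their convex minus flat median was -0.20, -0.24 and -0.10.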

How the data were processed

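Total RNA was treated with DNase, and strand-specific poly(A) libraries were made with Illumina TruSeq reagents, per the labels. The deposited values are raw counts per gene for 9 libraries of H9 cells, made by the authors on GRCh38 (tools listed: HISAT2, featureCounts), per the submitters' processing notes; their versions, the annotation release and the strandedness used in counting were not given in the sources used here. Of 62710 gene identifiers, 62639 were named and 58274 were in GENCODE v29, the source of gene types, coordinates and transcript lengths. There were 0 other per-sample columns.

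Counts were tested in R 4.3.3 with edgeR 4.0.16 (filterByExpr, TMM, robust quasi-likelihood fit, 1 coefficient per shape, all 9 libraries, biological coefficient of variation 0.329). The replicate number comparisons kept shape as a term (0.231 for number 3). P-values were two-sided and adjusted by Benjamini-Hochberg over 23075 genes, and an adjusted p under 0.05 was called. The standard error is the log2 difference divided by the square root of the F statistic. CPM used TMM-scaled library sizes. The procedure was tested on simulated data. Replicate pairs differed beyond sampling noise, with a chi-square per degree of freedom of 19.7 to 284.6.

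Deviations from group means correlated between equal numbers 1, 2 and 3 at r = 0.379, 0.0211 and 0.338 for concave with flat, 0.372, 0.397 and 0.62 for convex with flat, and 0.579, 0.29 and 0.612 for concave with convex. With a minimum of 0.1, the numbers paired the last 2 comparisons and not the first. Alternatives were DESeq2 1.42.0, limma 3.58.1 (voom), other scalings, filters and thresholds, a replicate block, a lowess length correction (span 0.3) for medians, and each library left out in turn. The 6 libraries numbered 1 and 2 alone were added after seeing the data.

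Members, lists and the number 3 split were chosen with earlier results of these data known. Tests were printed for up to 12 called members per direction by smallest p, otherwise for the 3 members with the smallest p. Levels were given for 17 fixed members and for the extremes of each family. Other genes, such as DNAJC11's test, HSPA14, DNAJA3 and the listed cochaperones, were named after their values were seen.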

Additional observations from a re-analysis of the deposited data

Results flagged for a closer look

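Within the 6 libraries numbered 1 and 2, 42 members were screened for a single library far from the other 5, and 5 passed; chance flags about 1 in 20. HSPE1 was at 73.6 CPM in flat 2 and at 29.4 to 38.2 CPM in the other 5. DNAJB2 was at 92.3 CPM in flat 2 and at 45.7 to 58.6 CPM in the other 5. DNAJC11 was at 37.7 CPM in flat 2 and at 66.8 to 81.2 CPM in the other 5. Flat 2 is the library with high short transcripts, and its part in these values was not tested. DNAJB6 was at 122.9 CPM in concave 1 and at 133 to 139 CPM in the other 5. HSPB8 was at 12.8 CPM in flat 1 and at 5.18 to 7.70 CPM in the other 5, all below the 32.6 CPM that was its lowest value in number 3.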

How the results depend on the processing

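Of 751 comparisons of a result with an alternative, 643 stayed on their side of the threshold or within the spread or 1.5-fold limit set for them, 68 lost a call and 40 moved. The named genes kept their sign in each, while the member median took the other sign in 7 cases. Those were concave minus flat without concave 1 (0.034) and concave minus convex, 0.0085 as reported, in 6 settings: with the length correction (-0.0052), limma voom (-0.0055), the replicate block (-0.0033), numbers 1 and 2 only (-0.073), without concave 3 (-0.12) and without convex 1 (-0.062). Members called in number 3 ranged from 2 to 26 over libraries left out (2 to 20 higher, 0 to 6 lower), and genes called from 1048 to 5402. Scaling by library size only gave 7 members higher and 5 lower in number 3, and an adjusted p under 0.1 gave 20 higher and 4 lower. Convex against flat had 1 gene called by DESeq2. Number 2 against number 1 had 147 genes called by DESeq2, 110 without the filter, 1 with DESeq2 size factors and 1 at an adjusted p under 0.1, and 0 to 11 over libraries left out, with 0 members in each; its member median was 0.066 by library size only and 0.083 to 0.16 over libraries left out. Member medians over libraries left out were -0.24 to 0.034 for concave minus flat, -0.18 to -0.015 for convex minus flat and -0.12 to 0.087 for concave minus convex. With the replicate block, 0 members were called for any shape comparison, and an unadjusted p under 0.05 was found for 6 members (2046 genes) in concave against flat, 12 members (4222 genes) in convex against flat and 0 members (147 genes) between the curved shapes. With numbers 1 and 2 only, 0 were called, and an unadjusted p under 0.05 was found for 21 members (30.9%, against 22.6% of all genes) in concave against flat and 17 members (25%, against 21.7%) in convex against flat. The block cannot be used between numbers. The causes were not tested. With 3 libraries a group, small differences are hard to call, whatever the depth.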
